A study of Mus musculus with 8 samples.

Results

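Fatty acid (FA) uptake and binding proteins were examined in the livers of mice lacking miR-33 in hepatocytes. The group was defined by gene symbol and has 10 members among the 17810 genes listed: the receptor Cd36, the 4 FA transport proteins Slc27a1, Slc27a2, Slc27a3 and Slc27a4, and the 5 FA binding proteins Fabp1, Fabp2, Fabp4, Fabp5 and Fabp7. All 10 were listed, and 9 had enough counts to be tested. The HKO livers came from 4 male mice carrying miR-33 loxP/loxP and Albumin-Cre, and the WT livers from 4 male littermates. Whether the WT mice carried floxed alleles without Cre was not stated in the sources used here. From 8 weeks of age all mice ate CD-HFD, a steatosis-inducing diet that is high in fat and lacks choline. They stayed on it for 3 months, and were 5 months old when the liver was perfused with PBS and frozen. The comparison asks how the loss of hepatocyte miR-33 changes the transcripts of a steatotic liver. Albumin-Cre deletes miR-33 in hepatocytes, and the RNA came from whole liver, which also holds the cell types that this Cre is not meant to reach. In such bulk samples, fewer cells of a type and less RNA per cell cannot be told apart.

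FAs released from adipose tissue reach the liver in plasma, cross the hepatocyte membrane with the help of CD36 and the FA transport proteins, and are carried inside the cell by small cytosolic binding proteins. The transport proteins also join FAs to coenzyme A, which traps them in the cell, and the binding proteins deliver them to oxidation, esterification and nuclear receptors. CD36 is low in the healthy mouse hepatocyte and is known to rise in the fatty liver, where Pparg drives its transcription, whereas Fabp1 is among the most abundant proteins of the hepatocyte and is a classical target of Ppara.

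miR-33 is encoded in an intron of Srebf2, and the mature strands below show what was deleted. They were taken from RefSeq on GRCm38.p6, from chr15:82198127-82198147 and chr15:82198167-82198188 on the plus strand, with the seed, bases 2 to 8, in capitals.
mmu-miR-33-5p: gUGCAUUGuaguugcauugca
mmu-miR-33-3p: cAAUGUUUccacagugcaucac

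A match to miR-33-5p, taken as CAATGCA (pairing with bases 2 to 8, the whole seed) or AATGCAA (pairing with bases 2 to 7, followed by an A) on the transcript strand, was present in the longest annotated 3'UTR of 3 of the 10 members. Among 11536 tested genes with a 3'UTR of at least 50 bases, 16.2% held such a match. All 3 sites in the members were AATGCAA, and none paired with the whole seed. They are shown because they are the only places in these annotated 3'UTRs where the members carry those letters, with the match in capitals. They lie at chr5:17782235-17782241 on the minus strand in Cd36, whose 3'UTR spans 1660 bases, at chr3:10016189-10016195 on the plus strand in Fabp5 (487 bases), and at chr10:57788416-57788422 on the plus strand in Fabp7 (277 bases), all on GRCm38.
Cd36: tatgtcttAATGCAAttgaacac
Fabp5: agcggtcaAATGCAAcaaacagc
Fabp7: ttctttggAATGCAAaccaaatt

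A match describes the letters only, and binding of miR-33 to these sites was not measured here. Of these 3 genes, Cd36 was lower in HKO livers, and neither Fabp5 nor Fabp7 passed the test.

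Libraries held 12174339 to 18735785 estimated counts, so that 3 counts, taken as the floor of detection, correspond to 0.16 to 0.246 CPM before scaling. CPM is the count relative to 1e6 counts of the library, and is given below on library sizes scaled by the TMM method. No level of miR-33 was analysed here, so the deleted gene could not be used to check the genotype labels. Abca1, an established miR-33 target that lies outside the rule for named genes, was higher in HKO livers (log2 fold change 0.47 ± 0.10 (SE), adjusted p = 0.0182). Hepatocyte transcripts were high in every liver, with a summed level of 10 hepatocyte markers between 91606 and 146378 CPM. Of these markers 4 were higher in HKO livers: Cps1 (log2 fold change 1.26), Tat (0.87), Serpina1a (0.61) and Hnf4a (0.36).

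By edgeR's quasi-likelihood test at a Benjamini-Hochberg adjusted p under 0.05, Cd36, Fabp1 and Fabp2 were lower in HKO livers. These are 3 of the 9 members tested, against 3.44% of the 12395 genes tested that were lower. None was higher, against 1.71% of all genes tested, and none of the members with a higher mean in HKO had an unadjusted p under 0.05. DESeq2 made 3 calls among the members, against 4.7% of its genes called lower, and limma-voom called the same 3 genes as edgeR. In 5 members, Cd36, Slc27a1, Slc27a4, Fabp1 and Fabp2, every HKO liver lay below every WT liver, which held for 7.19% of all genes tested. The study reports an altered FA uptake signature in these same livers, and the members were chosen with earlier results known. The common direction of these 5 is therefore not independent evidence. The median log2 fold change was −0.37 over the 9 members tested and 0.01 over all genes tested.

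**Figure D1:**
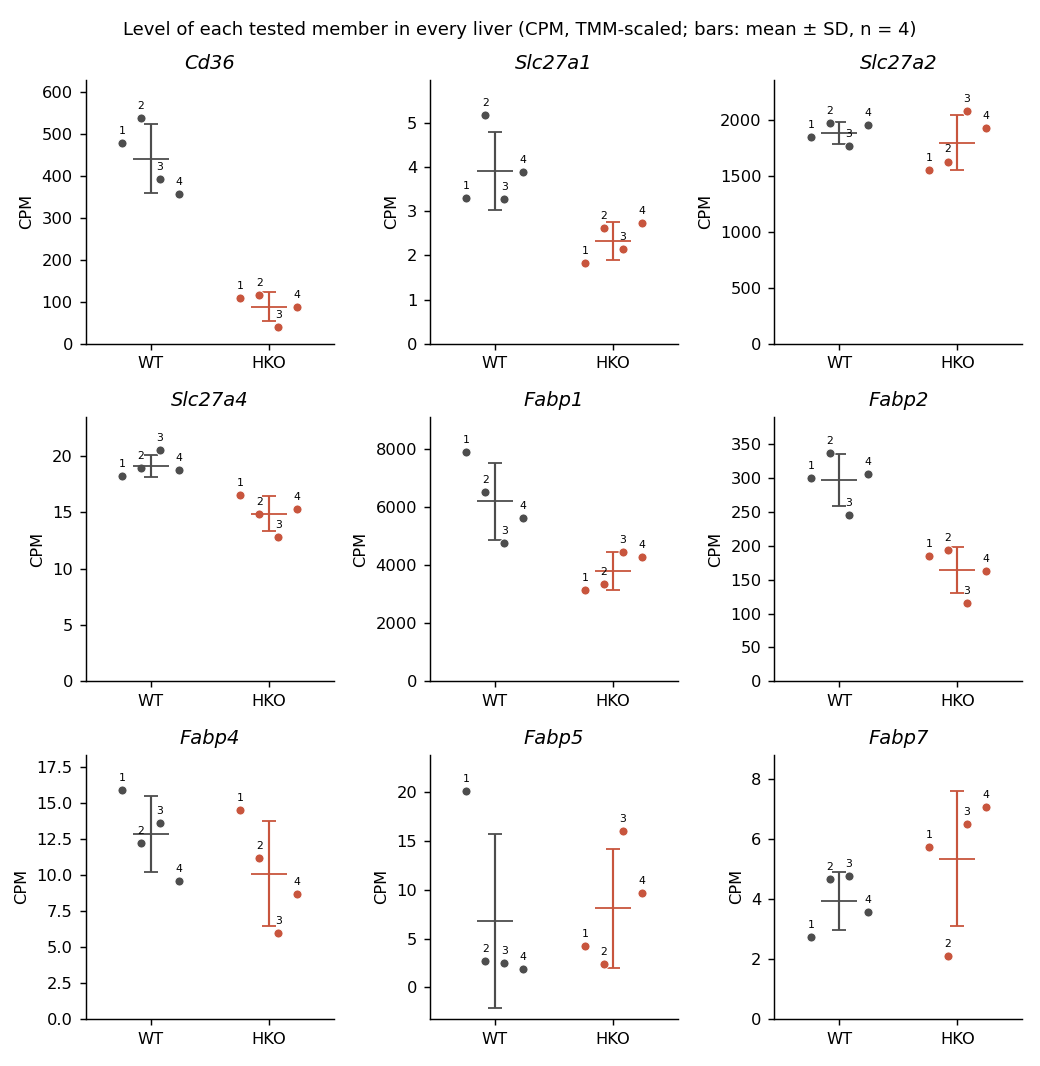
Level of each tested member in each liver, in CPM on TMM-scaled library sizes, with WT in grey and HKO in red, points numbered by replicate, and bars for the mean ± SD (n = 4). The 4 HKO livers sit below all 4 WT livers for Cd36, Slc27a1, Slc27a4, Fabp1 and Fabp2, and the SD bar of Fabp5 in WT reaches below 0 because 1 liver stands at 20.2 CPM.

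Cd36, the scavenger receptor through which long-chain FAs enter cells, had the log2 fold change of largest size among the 9 members (chr5:17781690-17888959, minus strand, GRCm38). The WT livers held 479, 537, 393 and 356 CPM in replicates 1 to 4. The HKO livers held 110, 116, 39.7 and 88.2 CPM. The lowest WT liver thus stood 239.7 CPM above the highest HKO liver. The means were 441 ± 82.0 CPM in WT and 88.4 ± 34.6 CPM in HKO (SD, n = 4), a 4.99-fold lower level. The log2 fold change was −2.32 (SE 0.34, 95% interval −3.13 to −1.51, adjusted p = 0.0142). Among the HKO livers, replicate 3 was the lowest, with 704 estimated counts against 1036 to 1624 in the other HKO livers. The call held in each of the 8 fits that left out a liver, with log2 fold changes from −2.48 to −2.07 and adjusted p values up to 0.0484. The counts of Cd36 were fractional in 6 livers, as the authors' quantification shares reads that fit several places, whereas the other 9 members had whole counts throughout.

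CD36 is also made by macrophages, endothelial cells and adipocytes. None of 12 macrophage markers and none of 12 endothelial markers was called by edgeR, DESeq2 or limma-voom, and none had an unadjusted edgeR p under 0.05. The summed macrophage markers ranged from 136 to 327 CPM in WT and from 98.8 to 303 CPM in HKO, and the summed endothelial markers from 83.1 to 257 CPM in WT and from 131.01 to 285 CPM in HKO. Of 5 markers of lipid-associated macrophages, Gpnmb was lower in HKO (adjusted p = 0.00551), with 0.768 to 1.49 CPM in WT and 0 to 0.17 CPM in HKO. Their summed level overlapped between the genotypes, at 56.8 to 73 CPM in WT and 42.2 to 86.8 CPM in HKO. Of 10 stellate cell and fibroblast markers, the collagens Col1a1, Col1a2 and Col3a1 were lower in HKO, with log2 fold changes of −2.81, −1.96 and −1.87, and the summed level was 399 to 596 CPM in WT and 329 to 431 CPM in HKO. None of 4 tested cholangiocyte markers and none of 3 tested leukocyte markers passed by edgeR, DESeq2 or limma-voom, or at an unadjusted edgeR p under 0.05, and DESeq2 gave no adjusted p for Epcam. HKO replicate 2 stood apart in cholangiocyte markers, with Epcam at 16.5 CPM against at most 1.02 CPM in the other 7 livers, Krt19 at 16.9 CPM against at most 1.07 CPM, and Cftr at 3.17 CPM against at most 0.497 CPM. Without that liver the log2 fold change of Cd36 was −2.48 (adjusted p = 0.0245). The part of these other cells in the difference of Cd36 was not tested.

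Of the 4 FA transport proteins 3 were tested, and none passed the threshold by edgeR, DESeq2 or limma-voom. All 3 had a lower fitted level in HKO, and the genotypes did not overlap for Slc27a1 and Slc27a4, both of which had an unadjusted edgeR p under 0.05. Slc27a2, the transport protein and very long-chain acyl-CoA synthetase of liver and kidney, lies at chr2:126553024-126588243 on the plus strand. Its WT livers held 1849, 1979, 1769 and 1960 CPM and its HKO livers 1554, 1632, 2084 and 1936 CPM. The highest and the 2 lowest livers were all HKO, and the genotypes overlapped throughout. The means were 1889 ± 98.8 CPM in WT and 1802 ± 250.1 CPM in HKO, and the log2 fold change was −0.07 (95% interval −0.31 to 0.17, adjusted p = 0.798). Of the length-adjusted level of the 4 transport proteins, Slc27a2 took at least 98.9% in every liver.

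Slc27a4, best known for FA absorption in the intestine and for the skin barrier, lies at chr2:29802634-29817522 on the plus strand. Its level was 18.2, 18.9, 20.5 and 18.8 CPM in WT. In HKO it was 16.5, 14.8, 12.8 and 15.3 CPM, all below WT by a narrow gap of 1.66 CPM. Its log2 fold change of −0.37 (SE 0.11, 95% interval −0.60 to −0.14) missed the threshold over all genes (adjusted p = 0.0721). With library totals used for scaling in place of TMM the value was −0.46 and the adjusted p 0.0483, while leaving out single livers gave adjusted p values between 0.0602 and 0.169.

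Slc27a1, the insulin-responsive transport protein of muscle and adipose tissue, was a low transcript here (chr8:71568871-71587307, plus strand). WT livers held 3.31, 5.17, 3.28 and 3.88 CPM, from 40 to 74 counts. HKO livers held 1.82, 2.62, 2.14 and 2.72 CPM, from 27 to 38 counts. The genotypes did not overlap, with a log2 fold change of −0.75 (SE 0.23, 95% interval −1.26 to −0.24) and an adjusted p of 0.0912. Slc27a3, which acts mainly as an acyl-CoA synthetase, lies at chr3:90385233-90389938 on the minus strand and had 0, 0, 1 and 2 counts in the WT livers and 1, 2, 1 and 0 in the HKO livers. Every liver was below the floor of 3 counts, so no fold change is given.

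**Figure D2:**
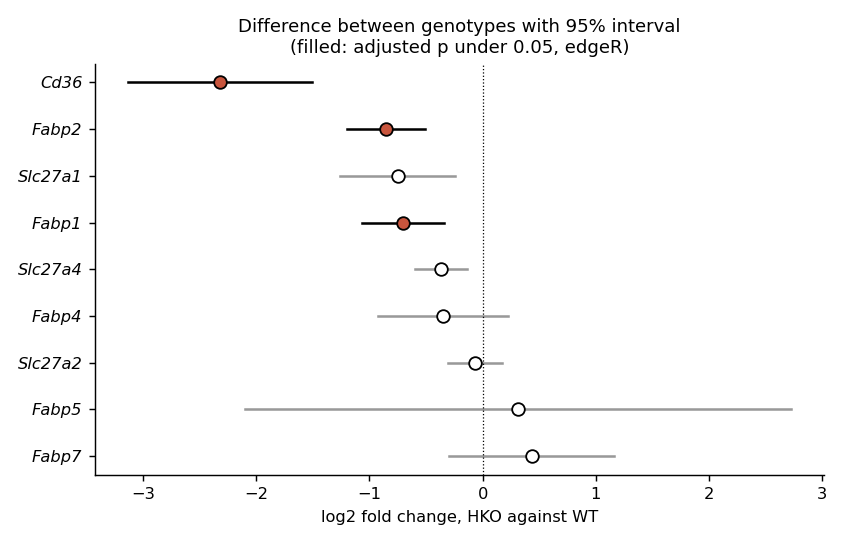
Log2 fold change of HKO against WT for the 9 tested members, with lines for the 95% interval and filled points for an adjusted p under 0.05 (edgeR). Cd36 lies farthest from 0 at −2.32, the intervals of Slc27a1 and Slc27a4 lie below 0 although their adjusted p values are 0.0912 and 0.0721, and the interval of Fabp5 runs from −2.10 to 2.72.

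Of the 5 binding proteins, Fabp1 and Fabp2 were lower in HKO livers. Fabp1, the liver FA binding protein, lies at chr6:71199879-71205034 on the plus strand. In WT the level was 7896, 6539, 4758 and 5646 CPM. In HKO it was 3146, 3369, 4454 and 4294 CPM. The genotypes were separated by 303.9 CPM, between WT replicate 3 and HKO replicate 3. The means were 6210 ± 1339 CPM in WT and 3816 ± 654 CPM in HKO (SD, n = 4), a 1.63-fold lower level, and the log2 fold change was −0.70 (SE 0.17, 95% interval −1.07 to −0.34, adjusted p = 0.0338).

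The call of Fabp1 changed with the livers and the model used. It held in 2 of the 8 fits that left out a liver, those without WT replicate 3 (adjusted p = 0.0169) and without HKO replicate 3 (0.0361). Without WT replicate 1, 2 or 4 or HKO replicate 1, 2 or 4, the adjusted p lay between 0.0533 and 0.117, with log2 fold changes from −0.76 to −0.56. With the replicate number as a block, on all 8 livers, the log2 fold change was −0.69 and the adjusted p 0.148. Its direction did not change in any of these fits.

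Fabp2, the intestinal FA binding protein, lies at chr3:122895072-122899506 on the plus strand. The WT livers held 301, 337, 245 and 305 CPM. The HKO livers held 185, 193, 116 and 163 CPM. Every HKO liver was at least 51.6 CPM below the lowest WT liver, and replicate 3 was the lowest in both genotypes. The means were 297 ± 38.3 CPM in WT and 164 ± 34.5 CPM in HKO (SD, n = 4), a 1.81-fold lower level. The log2 fold change was −0.85 (SE 0.16, 95% interval −1.20 to −0.51, adjusted p = 0.013), and the call held in each of the 8 fits that left out a liver.

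Fabp2 overlaps 4933405D12Rik on the opposite strand, which had 1 count in all 8 livers together. Its protein is named for the enterocyte, and of 7 enterocyte markers 5 were not listed, Vil1 was between 0 and 1.39 CPM, and Anpep, which liver also makes, was between 111.6 and 143.8 CPM in WT and between 98.5 and 114.4 CPM in HKO. Anpep was the only one tested, with a log2 fold change of −0.25, an unadjusted p of 0.0156 and an adjusted p of 0.14, and was not called by DESeq2 or limma-voom. The part of enterocyte RNA in the level of Fabp2 was not tested.

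Fabp4, the binding protein of adipocytes and also of endothelial cells and macrophages, lies at chr3:10204343-10208616 on the minus strand. Its level was 15.9, 12.2, 13.6 and 9.60 CPM in WT. In HKO it was 14.5, 11.2, 5.97 and 8.68 CPM. The genotypes overlapped, and the log2 fold change was −0.35 (95% interval −0.92 to 0.23, adjusted p = 0.519). Of 8 adipocyte markers 7 were listed and 2 were tested, with no call by edgeR, DESeq2 or limma-voom and, by edgeR, 1 higher and 1 lower at an unadjusted p under 0.05. Their summed level was 3.48 to 8.03 CPM in WT and 5.02 to 9.11 CPM in HKO. The adipocyte hormones Adipoq and Lep were at 1.42 and 2.09 CPM in HKO replicate 1, the HKO liver with the most Fabp4, and at 0.386 CPM or less in the other 7 livers. The summed adipocyte markers were also highest in that liver (9.11 CPM). Cfd was highest among HKO livers there (1.28 CPM), but lower than in WT replicates 1, 2 and 4 (3.89, 6.98 and 4.93 CPM). Retn and Slc2a4 were second there (0.27 and 2.16 CPM) to HKO replicate 2 (0.695 and 2.24 CPM), and Adrb3 was lower there (1.89 CPM) than in the other HKO livers. Adig was listed at 0 in all HKO livers. Without HKO replicate 1 the log2 fold change of Fabp4 was −0.58. The part of adipocyte RNA in that liver's level was not tested.

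Fabp5, the epidermal FA binding protein, lies on the same chromosome at chr3:10012585-10016610 on the plus strand. The WT livers held 20.2, 2.72, 2.44 and 1.84 CPM, so that replicate 1 stood far above the others. The HKO livers held 4.25, 2.39, 16.0 and 9.70 CPM, with replicate 3 the highest. The means of 6.79 ± 8.93 CPM in WT and 8.09 ± 6.12 CPM in HKO describe no typical liver, and the log2 fold change of 0.31 had a 95% interval from −2.10 to 2.72 (adjusted p = 0.911). Leaving out WT replicate 1 gave 1.80, leaving out HKO replicate 3 gave −0.28, and neither passed the threshold. Sqle, the squalene epoxidase of cholesterol synthesis, was chosen after its values were seen because it was high in the same livers. WT replicate 1 stood at 118 CPM, where WT replicates 2 to 4 had 5.67 to 12.1 CPM, and HKO replicate 3 stood at 15.5 CPM, where the remaining HKO livers had 4.32 to 11.7 CPM.

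Fabp7, the brain-type binding protein that Kupffer cells also make, lies at chr10:57784923-57788450 on the plus strand. WT livers held 2.73, 4.68, 4.77 and 3.55 CPM, and HKO livers 5.74, 2.08, 6.48 and 7.07 CPM. The 3 highest livers and the lowest were HKO, and the log2 fold change was 0.43 (95% interval −0.30 to 1.16, adjusted p = 0.532). The livers with the least Fabp7, WT replicates 1 and 4 and HKO replicate 2, also had the lowest summed macrophage markers, at 136, 172 and 98.8 CPM against 281 to 327 CPM in the other 5 livers. Clec4f, a Kupffer cell marker, stood at 20.3, 28.3 and 19.0 CPM in those 3 livers and at 52.7 to 57.6 CPM in the others. The part of macrophage content in the level of Fabp7 was not tested.

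**Figure D3:**
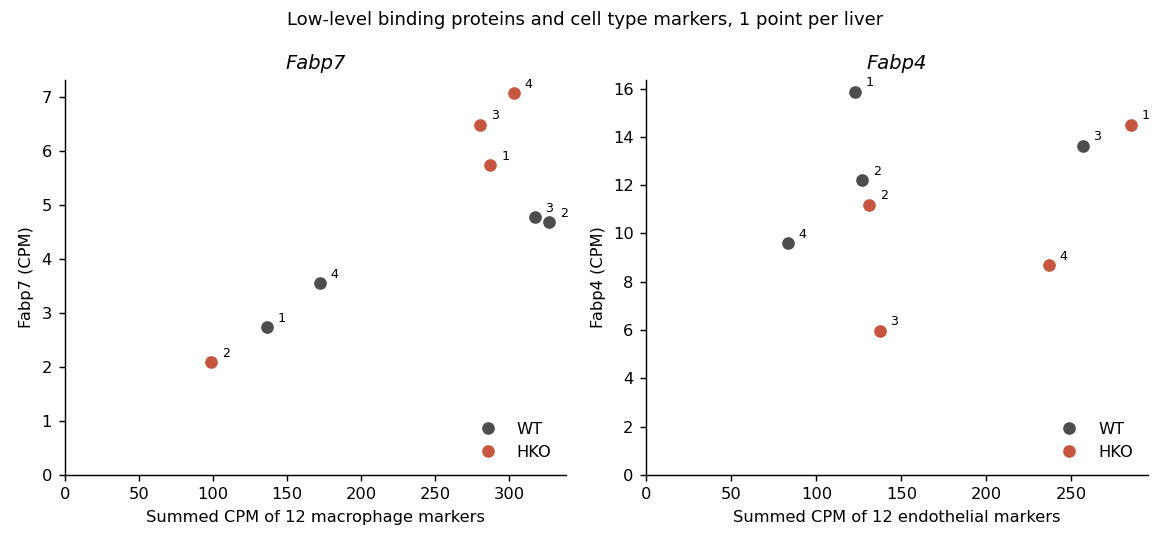
Fabp7 against the summed CPM of 12 macrophage markers and Fabp4 against the summed CPM of 12 endothelial markers, 1 point per liver, WT in grey and HKO in red, numbered by replicate. The 3 livers with the lowest macrophage markers (98.8 to 172 CPM) are the 3 lowest for Fabp7. For Fabp4 the highest liver, WT replicate 1 at 15.9 CPM, stands at 123 CPM of endothelial markers. HKO replicate 1 (14.5 CPM) and WT replicate 3 (13.6 CPM) follow, with the highest endothelial sums (285 and 257 CPM). HKO replicate 4 has the next highest sum (237 CPM) but Fabp4 at 8.68 CPM, with only HKO replicate 3 lower (5.97 CPM).

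The plot of adjusted p values shows how far each call of the 5 non-overlapping members rested on the model and on single livers.

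**Figure D4:**
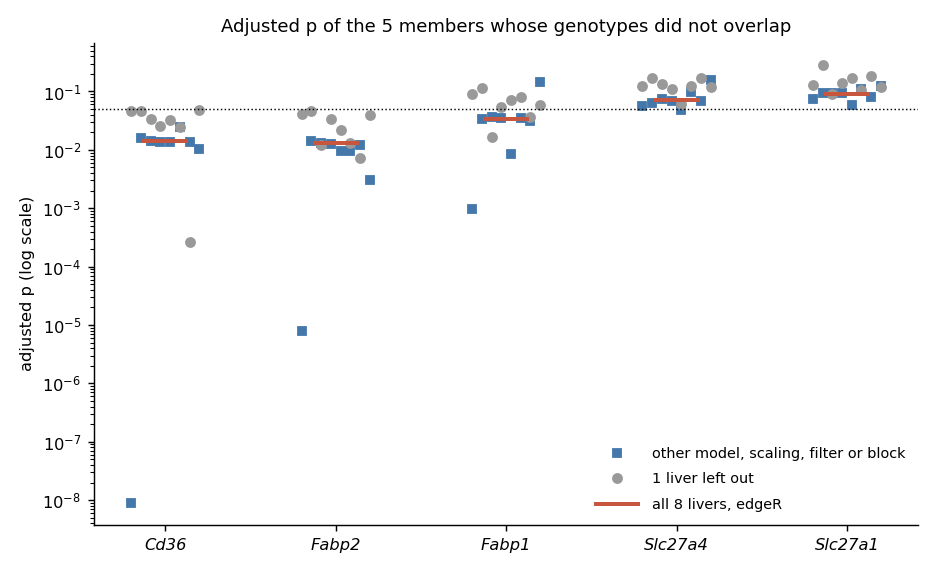
Adjusted p (log axis) of the 5 members whose genotypes did not overlap, with red bars for edgeR on all 8 livers, blue squares for other models, scalings, filters and the replicate block, and grey circles for fits without 1 liver. All points of Cd36 and Fabp2 lie below the dotted line at 0.05, Fabp1 crosses it in 7 fits, and Slc27a4 falls below it in 1.

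To compare levels between genes, CPM were divided by the length of the union of each gene's exons. That union was 4489 bases for Fabp4, longer than the gene as listed, and 3567 bases for Fabp5. A shorter length would raise their levels per kb and could change their places in the order. In WT livers the order per kb was Fabp1 (11229 CPM per kb), Slc27a2 (503), Fabp2 (308), Cd36 (123) and Slc27a4 (4.33), each above the next without overlap of the livers. Fabp7 (3.15), Fabp4 (2.86), Fabp5 (1.90) and Slc27a1 (0.67) followed, and the levels of these 4 overlapped from each to the next. In HKO livers the first 4 places were the same, at 6900, 480, 170.3 and 24.6 CPM per kb. Below them the levels of Fabp7 (4.27), Slc27a4 (3.37), Fabp5 (2.27) and Fabp4 (2.25) overlapped from each to the next, and Slc27a1 (0.40) lay under them. Fabp1 took 96.9% to 97.8% of the length-adjusted level of the binding proteins in WT and 96.6% to 98.4% in HKO.

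**Figure D5:**
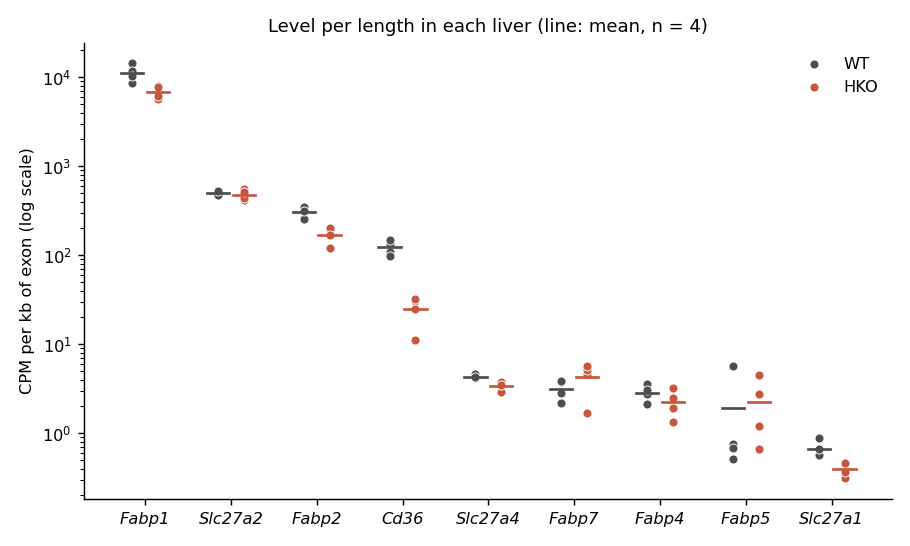
Level per length (CPM per kb of exon, log axis) of the 9 tested members in each liver, WT in grey and HKO in red, with lines for the mean (n = 4). Fabp1, Slc27a2, Fabp2 and Cd36 keep the first 4 places in both genotypes, and the other members lie below 6 CPM per kb.

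The nearest relatives of the members were read from a list of 7 genes. Slc27a5, the liver transport protein that also activates bile acids, was the only one tested. The WT livers held 419, 387, 405 and 443 CPM and the HKO livers 511, 550, 466 and 629 CPM. The genotypes did not overlap and HKO was the higher, opposite in direction to Slc27a4 and Slc27a1, with a log2 fold change of 0.38 (SE 0.10) and an adjusted p of 0.0506 by edgeR. It was called by DESeq2 and by limma-voom. Slc27a6 and Fabp3 had 32 and 2 counts in all livers together, and Fabp6, Fabp9, Fabp12 and Pmp2 were not listed.

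Of 15 transcriptional regulators of these genes, Pparg and Ppara were lower and Hnf4a was higher in HKO livers. Pparg, the nuclear receptor that drives Cd36 in the steatotic liver, held 22.0, 20.8, 16.3 and 19.4 CPM in WT and 9.38, 11.0, 7.44 and 4.94 CPM in HKO. Every HKO liver was below every WT liver, with a log2 fold change of −1.25 (SE 0.21, adjusted p = 0.00801) that passed in each of the 8 fits without a liver.

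Ppara, the receptor that FAs activate and that drives Fabp1, held 661, 682, 666 and 675.5 CPM in WT and 564, 564, 523 and 492 CPM in HKO. Its log2 fold change was −0.33 (SE 0.08, adjusted p = 0.0409), and it passed in 0 of the 8 fits without a liver, all of them lower. Hnf4a, the receptor that maintains hepatocyte identity, held 441, 438.5, 471 and 435 CPM in WT and 633, 560, 499 and 594 CPM in HKO (log2 fold change 0.36, SE 0.09, adjusted p = 0.0442), and passed in 1 of those 8 fits. The other regulators given here did not pass, with adjusted p values from 0.207 to 0.868. Their log2 fold changes were −0.51 for Ppard, −0.24 for Nr1i2, 0.08 for Nr1h3, 0.09 for Ppargc1a and 0.10 for Srebf1. For Ahr, Nr1h2, Rxrb, Rxra, Cebpa and Mlxipl they were 0.18, 0.18, 0.18, 0.21, 0.22 and 0.28.

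Of 10 tested genes that activate or shuttle FAs inside the cell, 1 was lower and none was higher by edgeR, DESeq2 or limma-voom, and none had a higher level at an unadjusted p under 0.05. The lower gene was Acsl1, the main long-chain acyl-CoA synthetase of liver, with 1503, 1701, 1732 and 1453 CPM in WT and 1100, 998, 1426 and 1073 CPM in HKO. Its log2 fold change was −0.47 (SE 0.12, adjusted p = 0.0437), and it passed in 2 of the 8 fits without a liver. Of 6 membrane partners of FA uptake (Got2, Cav1, Cav2, Cavin1, Zdhhc4 and Zdhhc5) none was called by edgeR, DESeq2 or limma-voom, with 1 higher and 1 lower at an unadjusted p under 0.05.

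Promoters are shown for the 3 called members, to look for the paired AGGTCA hexamers through which Pparg and Ppara are known to act. Each of the 3 was lower in HKO, but among the HKO livers replicate 3 was lowest for Cd36 and Fabp2 and highest for Fabp1. The part of Pparg or Ppara in their levels was not tested. Of the 10 members 8 had an entry in the RefSeq promoter table on GRCm38.p6, which spans 250 bases before to 50 bases after an annotated start site, a total of 300 bases. AGGTCA was searched on both strands, and AGGTCANAGGTCA, which contains it at either end, on both strands with up to 1 mismatch. Matches are in capitals. The sequences are chr6:71199629-71199928 on the plus strand, chr5:17835847-17836146 on the minus strand, from the start site entered in that table and not from the end of the gene as listed, and chr3:122894822-122895121 on the plus strand.
Fabp1: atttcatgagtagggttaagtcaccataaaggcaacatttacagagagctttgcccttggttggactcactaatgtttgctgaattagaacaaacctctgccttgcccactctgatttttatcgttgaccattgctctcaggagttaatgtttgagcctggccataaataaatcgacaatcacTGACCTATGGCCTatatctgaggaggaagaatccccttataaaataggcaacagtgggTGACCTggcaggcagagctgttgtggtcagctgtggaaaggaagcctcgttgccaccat
Cd36: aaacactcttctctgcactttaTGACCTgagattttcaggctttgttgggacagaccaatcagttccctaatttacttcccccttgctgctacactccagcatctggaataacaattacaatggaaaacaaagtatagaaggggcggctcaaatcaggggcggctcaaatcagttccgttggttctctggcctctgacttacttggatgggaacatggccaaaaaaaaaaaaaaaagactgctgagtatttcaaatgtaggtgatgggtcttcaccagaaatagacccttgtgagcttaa
Fabp2: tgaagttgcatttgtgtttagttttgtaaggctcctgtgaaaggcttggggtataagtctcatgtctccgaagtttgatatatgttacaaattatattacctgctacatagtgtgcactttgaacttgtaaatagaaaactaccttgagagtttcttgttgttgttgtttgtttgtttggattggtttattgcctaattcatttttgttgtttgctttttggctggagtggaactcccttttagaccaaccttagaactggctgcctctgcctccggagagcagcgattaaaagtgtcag

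AGGTCA was found in the promoters of Cd36, Slc27a2, Fabp1 and Fabp7, and in 16.3% of the 32851 promoters in the table. The direct repeat was found in Fabp1 alone among the 8, beginning 67 bases before the start site and read from the minus strand, with 1 mismatch (TGACCTATGGCCT on the strand shown), and in 0.554% of all promoters. In the window shown, which lies inside the gene as listed, Cd36 held only the hexamer, 228 bases before the start site used. The upstream end of Cd36 as listed was not searched. The hexamer was not found in the window of Fabp2. A match is not evidence of a bound factor, and binding was not measured here.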

How the data were processed

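RNA-Seq of whole liver was available for 4 WT and 4 HKO mice, 1 library per liver, grouped by GEO's labels. The authors deposited estimated counts per gene, made per the labels with STAR and Partek's expectation-maximization quantification (versions not given in the sources used here), unnormalized. Of these values 80.3% are whole, and 5526 genes have a fractional value. The labels name rRNA depletion and a small RNA kit, so the library type is uncertain. Strand use in counting was not stated. Coordinates are GRCm38, with the listed stop lowered by 1 base because it exceeds the RefSeq end by 1 in 65.3% of 17767 matched genes. Exon lengths and 3'UTRs came from GENCODE.

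Counts were rounded and tested with edgeR 4.0.16 in R 4.3.3 (TMM, filterByExpr with a minimum count of 10, robust quasi-likelihood test, Benjamini-Hochberg over 12395 genes). The fit was repeated with DESeq2 1.42.0 or limma-voom (limma 3.58.1), with upper quartile, RLE or total count scaling, without a filter, with every liver required to have 10 counts, with the replicate block, and leaving out each liver. The mean log2 CPM of each tested member was also compared by an exact permutation test, two-sided, with 70 ways to allocate the livers. Its p was 0.0286 for each of the 5 non-overlapping members, the smallest it can give. That value is fixed once the genotypes do not overlap, so it adds nothing to the separation already described. For the remaining tested members the permutation p lay between 0.257 (Fabp4) and 0.543 (Fabp5). On simulated counts with 200 of 12395 genes changed, edgeR recovered 96% at a log2 change of 2 and 83% at 1. Unchanged genes made up 4.79% of its calls. The same dispersion was used for all genes in that simulation, without outlying livers. In the real livers the SD within a genotype ranged from 5.23% of the mean (Slc27a2 in WT) to 131% (Fabp5 in WT) among tested members. The simulated rates therefore check the code and do not give the error rates for these livers. Python 3.11.15, pandas 2.3.3, numpy 2.4.6, scipy 1.17.1 and matplotlib 3.10.9 were used.

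The members and lists were chosen with earlier results of these data known. The text names all 10 members, the genes of each list that passed, and the tested genes of the relatives and regulators. Some results of these lists are not reported here.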

Additional observations from a re-analysis of the deposited data

Results flagged for a closer look

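In 38 groups of 4 livers, for the level of each tested member and of each marker list and for the library total, the liver farthest from the others was checked by Dixon's test, and 4 stood apart where chance, at about 1 group in 20, gives about 1.9. Fabp5 in WT replicate 1 was at 20.2 CPM, where WT replicates 2 to 4 had 1.84 to 2.72 CPM. The summed macrophage markers in HKO replicate 2 were at 98.8 CPM against 281 to 303 CPM in the other HKO livers, and Fabp7 was lowest in that liver. The summed markers of lipid-associated macrophages were at 73 CPM in WT replicate 1 against 56.8 to 58.8 CPM, and at 86.8 CPM in HKO replicate 2 against 42.2 to 49.0 CPM. In that HKO liver Spp1 made up 63.1 CPM and Cd9 20.1 CPM of the sum, while Gpnmb was at 0, Trem2 at 0.309 CPM and Lgals3 at 3.24 CPM. Spp1 is also on the list of cholangiocyte markers, whose sum in the same liver was 124.7 CPM against 41.4 to 68.4 CPM in the rest of the group. The cause of these levels was not tested.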

How the results depend on the processing

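Cd36 and Fabp2 were called lower under every model, scaling, filter, block and omission of a liver that was run, and no tested member other than Fabp5 changed direction. Fabp5 reversed without WT replicate 4 (−0.0042) and without HKO replicate 3 (−0.28), within a range of −0.28 to 1.80 over single omissions. Between 2 and 3 members were called without a liver. Over all genes, edgeR called 638, DESeq2 989, and the fits without a liver 222 to 599, the lowest without WT replicate 2, then WT replicate 1 (293) and HKO replicate 4 (369). With total count scaling 118 genes were higher and 622 lower, against 212 and 426, and all genes shifted by −0.09 in the median log2 fold change. Slc27a4 was then called (−0.46). Livers that share a replicate number are different mice, and their deviations did not correlate (−0.15 to 0.01 over 4 pairs, with 0 livers correlating best with their own number). With the replicate block, 470 genes and 2 members were called, and Fabp1 was not (−0.69, adjusted p = 0.148). The cause of these changes was not tested. At these depths Slc27a3 was not detectable above the floor, and Slc27a1 and Fabp7 rest on 27 to 115 counts per liver.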
